A study of Danio rerio with 7 samples.

Results

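Solute carriers are the membrane proteins that move amino acids, sugars, metal ions, nucleosides, phosphate and other small solutes into and out of cells and organelles, mostly without spending ATP directly. They are numbered by family, so that SLC2 holds the hexose transporters, SLC7 with its SLC3 partners the heteromeric amino acid transporters, SLC30 and SLC39 the zinc exporters and importers, and SLC25 the carriers of the mitochondrial inner membrane. In the injured heart they supply fibroblasts and phagocytes with fuel, amino acids and metals, and several of them sit in the lysosome, where they export what a phagocyte digests. The 97 gene IDs described here were chosen by their level: all IDs whose gene name starts with slc, a number and a letter, in any case, and whose TPM was at least 10 in 3 or more of the 7 libraries. They are 97 of 423 such IDs and of 31388 IDs in the table. TPM is an abundance corrected for transcript length and scaled to the same sum in every library, so levels of different genes can be set side by side, but no read depth can be taken from them.

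The libraries came from adult zebrafish (Danio rerio, 3 to 9 months old) whose ventricle had been injured. All fish were postnb:CreERT2;ubb:loxP-GFP-loxP-mCherry animals, in which a Cre recombinase made under postnb control, and active only with 4-hydroxytamoxifen (4-OHT), switches a ubiquitous reporter from GFP to mCherry for good. Both groups received 10 µM 4-OHT overnight at 3 and 4 days post injury (dpi), and mCherry-positive cells were sorted from the ventricular apex at 7 dpi (4 pools, replicates 1 to 4) or at 60 dpi (3 pools, replicates 1, 2 and 4), each pool made of 3 to 5 hearts. The comparison asks how cells descended from early users of the periostin gene postnb differ between 7 and 60 dpi. The label covers every cell type that used postnb when the drug was given, and no uninjured or unlabelled cells were analysed here. In the text that follows, values per library are given in the order of replicates 1, 2, 3 and 4 at 7 dpi and 1, 2 and 4 at 60 dpi.

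Marker sums of macrophages and leukocytes, neutrophils and lymphocytes were lower in all 60 dpi libraries, and those of the other cell types examined overlapped between the groups. The summed TPM of 32 macrophage and leukocyte IDs was 9586 to 13432 TPM at 7 dpi, against 2488 to 5409.7 TPM at 60 dpi, highest at 60 dpi in replicate 4, and 20 of the 30 tested were lower at 60 dpi while none was higher. 2 of these IDs, mfap4.6 and mfap4.8, and a very low MPEG1 ID were listed at 0 in every 60 dpi library. The 7 neutrophil IDs summed to 81.5 to 229.9 TPM at 7 dpi, against 12.4 to 15 TPM at 60 dpi, and the 10 lymphocyte IDs to 224 to 714 TPM at 7 dpi, against 26.8 to 118 TPM at 60 dpi. None of 6 tested neutrophil IDs passed, and 4 of 8 tested lymphocyte IDs were lower. Over all tested IDs 3.68% passed as lower and 3.20% as higher. The 21 cardiomyocyte IDs summed to 676 to 1228 TPM at 7 dpi, against 665 to 5106 TPM at 60 dpi, with replicate 1 of 60 dpi just below the range of 7 dpi and replicates 2 and 4 above it. Of 17 tested cardiomyocyte IDs 1 was higher at 60 dpi. The 8 erythrocyte IDs summed to 3221 to 7289 TPM at 7 dpi, against 689 to 6130.2 TPM at 60 dpi, and none passed. The 11 endothelial IDs summed to 24.3 to 137 TPM at 7 dpi, against 96.4 to 160 TPM at 60 dpi, and none of 9 tested passed. Fibroblast IDs, 11 of them with col1a1a, DCN and FN1 among them, summed to 5342 to 7509.9 TPM at 7 dpi, against 6713 to 8309 TPM at 60 dpi in overlapping ranges. DPT, PDGFRA and DCN were higher at 60 dpi and 1 of 2 FN1 IDs was lower (limma adjusted p = 0.00413, 0.0226, 0.0278 and 0.0044), and the other 7 did not pass. In bulk RNA of sorted pools, fewer cells of a type and less RNA per cell cannot be told apart.

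The solute carrier IDs spanned a wide range of levels. Their mean over the 7 libraries ran from 6.72 to 2908 TPM with a median of 24 TPM, 10 of them averaged 100 TPM or more and 37 averaged under 20 TPM. SLC25A5, an ADP/ATP translocase that exchanges ATP made in mitochondria for cytosolic ADP, stood first by a wide margin. It was followed by SLC43A3, a purine nucleobase transporter, at a mean of 733 TPM, by slc25a55a, a member of the mitochondrial carrier family, at 333 TPM, and by SLC7A7, an amino acid exchanger, at 248 TPM. Together the 97 IDs took between 0.596 and 0.953% of all TPM in a library, in ranges that overlapped between the groups.

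The level rule left 326 solute carrier IDs outside: 65 were listed at 0 in every library, 188 stayed under 10 TPM throughout, and 73 reached 10 TPM in 1 or 2 libraries. The third highest TPM decides membership; it was 10.5 for SLC39A10, 10.8 for slc25a39 and 10.8 for SLC17A9 just inside, and 9.95 for SLC9A7, 9.92 for slc31a2 and 9.91 for SLC25A28 just outside. Of metal transporter IDs 16 of 32 reached the level. The counts were 20 of 75 for amino acids (26.7%), 16 of 59 for mitochondrial carriers (27.1%), 7 of 34 for sugars (20.6%), 8 of 66 for ions (12.1%) and 3 of 34 for organic acids (8.82%). 38 of the 97 IDs were at or above 10 TPM in all 7 libraries and 14 in exactly 3. The name pattern also took in SLC7A6OS, a gene named for lying opposite SLC7A6, and slc2a4rg, a regulator of the SLC2A4 gene, which are not transporters. Their means at 7 and 60 dpi were 20.9 and 27.7 TPM and 10.2 and 6.24 TPM, and neither passed the test described next.

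**Figure D1:**
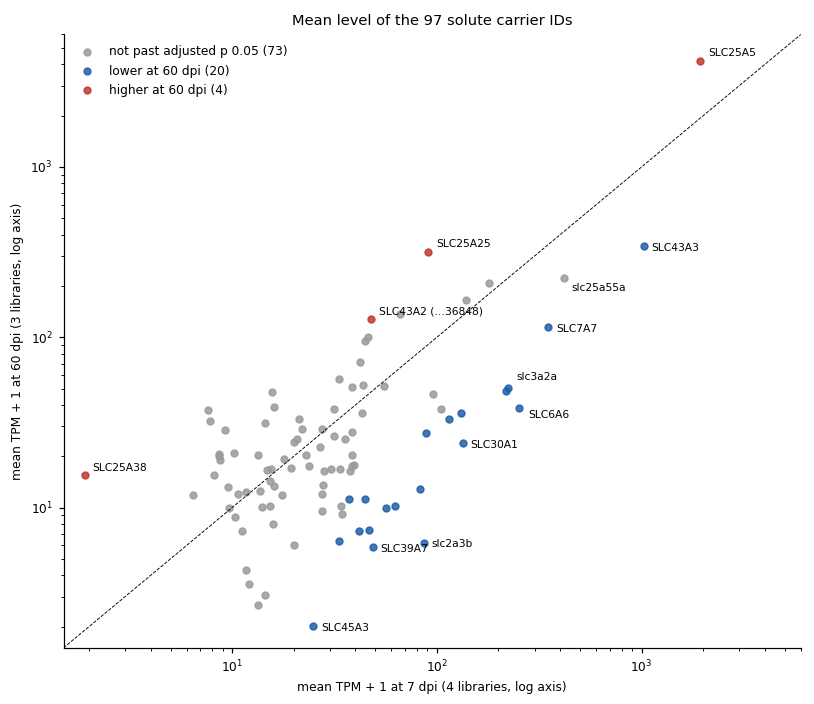
Mean TPM + 1 of each of the 97 solute carrier IDs at 7 dpi (x axis, 4 libraries) and at 60 dpi (y axis, 3 libraries), both on log axes, with the line of equal level dashed. The 20 IDs lower at 60 dpi lie below the line and span more than a decade of level, while SLC25A5, the most abundant, and SLC25A25 lie above it.

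Solute carrier IDs that passed the test were mostly lower at 60 dpi. Among them were 5 of 16 IDs of the metal group, 4 of 7 of the sugar group and 4 of 20 of the amino acid group. In a limma fit over all 15130 tested IDs, 24 of the 97 passed a Benjamini-Hochberg adjusted p of 0.05, 20 of them lower and 4 higher at 60 dpi. Over all tested IDs 6.88% passed, 3.68% lower and 3.20% higher. Over the 7276 IDs that meet the same level rule, whatever their name, 13.1% passed, 6.97% lower and 6.10% higher, against 24.7% of the solute carrier IDs, 20.6% lower and 4.12% higher, so that the higher share lay between both backgrounds. An ID that met the level rule through the libraries of 1 group only had to differ between the groups: 10 IDs reached 10 TPM in 7 dpi libraries alone, 5 of which passed as lower (slc2a3b, SLC45A3, SLC39A7, SLC38A7 and SLC22A23), and 1 in 60 dpi libraries alone, which passed as higher. Among the 86 IDs with at least 10 TPM in a library of each group, a split chosen after the data were seen, 15 were lower and 3 higher (17.4 and 3.49%). The share over all IDs was not computed for this split, and both backgrounds above include IDs that met the level in 1 group only. The shares are a description of chosen IDs and carry no test of their own.

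The 7 and 60 dpi libraries did not overlap for 42 of the 97 IDs: all 60 dpi libraries lay below all 7 dpi libraries for 29 and above them for 13. Over all tested IDs the shares were 11% lower and 10.3% higher, and over the IDs of the same level rule 15.4% lower and 15.6% higher. Of the 29, 8 reached 10 TPM in 7 dpi libraries alone: slc2a3b, SLC45A3, SLC39A7, SLC39A10, SLC38A7, SLC22A23, SLC29A3 and SLC16A1. Of the 13, 1 reached it in 60 dpi libraries alone, SLC25A38. The level rule took these in through the group where they are high. Among the 86 IDs with at least 10 TPM in a library of each group, 21 lay below and 12 above, again without a share over all IDs for this split. The median log2 fold change (60 minus 7 dpi, on log2(TPM + 1)) was -0.42 for the 97 IDs, -0.04 for all tested IDs and 0.00 for those under the same level rule. IDs without a gene name took 20.2 to 40.03% of TPM at 7 dpi and 15.8 to 19.2% at 60 dpi, without overlap. With TPM rescaled over named IDs these medians became -0.69 for the 97 and -0.26 for all tested IDs. Calls among the 97 fell from 24 to 15, 14 and 12 without 7 dpi replicates 1, 2 and 3 and to 15 without 60 dpi replicate 2. Calls over all tested IDs fell with them, from 1041 to 734, 653, 581 and 583. The higher calls numbered 2, 0 and 0 without 7 dpi replicates 1, 2 and 3, and 2, 0 and 1 without 60 dpi replicates 1, 2 and 4. Lower calls numbered 13 and 12 without 7 dpi replicates 1 and 3. Of the 20 IDs that fell, 10 had their highest 60 dpi value in replicate 4, the 60 dpi library with the highest leukocyte marker sum, and 5 each in replicates 1 and 2. At 7 dpi the highest value was in replicate 1 for 10 of them and in replicate 4 for the other 10, the libraries with the highest leukocyte sums of that group. The same libraries had the highest sums of all 97 IDs in their groups. These were 9535 and 8156 TPM in 7 dpi replicates 1 and 4 and 9380 TPM in 60 dpi replicate 4. Their shares of TPM in IDs without a gene name were the lowest of their groups, 20.2, 30.6 and 15.8% in that order. The parts of leukocyte RNA and of these shares in the falls were not tested.

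**Figure D2:**
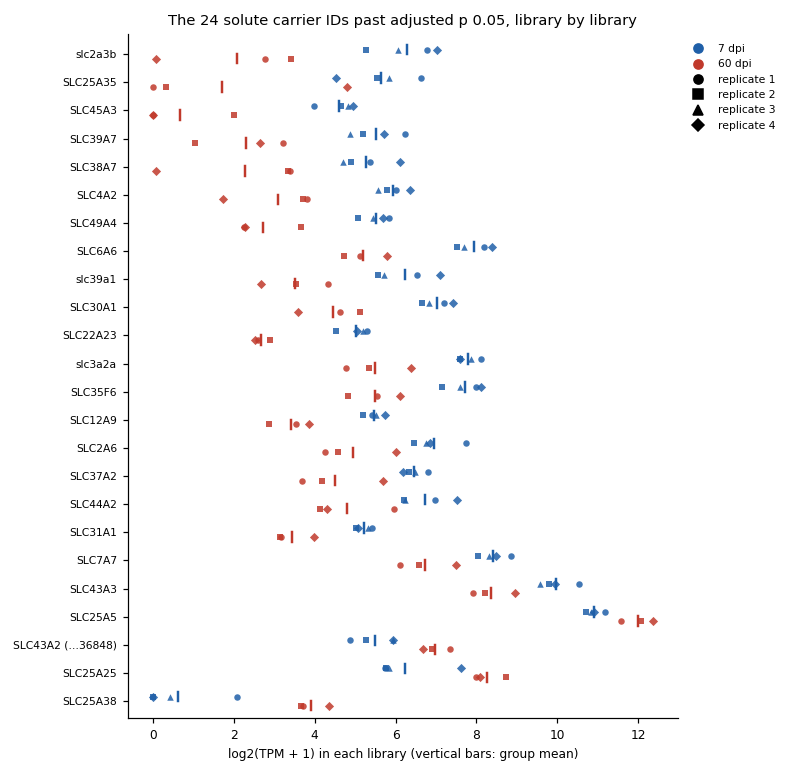
Level of the 24 solute carrier IDs past an adjusted p of 0.05 as log2(TPM + 1) in each library (7 dpi blue, 60 dpi red, marker shape by replicate number, vertical bars at group means), ordered by fold change. The 4 red groups at the bottom lie to the right of the blue ones, and in the other 20 rows they lie to the left; SLC25A35 in 60 dpi replicate 4 reaches into the 7 dpi range.

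Amino acid transporters moved both ways. Of 20 IDs 4 fell, namely SLC6A6, SLC7A7, slc3a2a and SLC38A7, and 1 rose, while 10 had a negative and 10 a positive fold change. Under the same level rule 6.97% of all IDs passed as lower and 6.10% as higher. SLC6A6 is the transporter of taurine, an abundant osmolyte of heart and phagocytes. It had 289.6, 183, 205 and 330.4 TPM in the 7 dpi libraries and 33.6, 25.4 and 53.9 TPM in the 60 dpi libraries. The groups were far apart, without overlap. SLC6A6 fell (log2 fold change -2.74, SE 0.36, limma adjusted p = 0.00142). Its adjusted p was the smallest of the 97, and the call held in all 18 alternatives. SLC7A7 is the light chain of an exchanger that releases arginine and lysine and a gene that zebrafish brain macrophages need. It had 463, 261, 318 and 355 TPM in the 7 dpi libraries and 68.1, 94.1 and 178 TPM in the 60 dpi libraries. Its 60 dpi libraries all lay lower, with replicate 4 the highest of them. SLC7A7 fell (log2 fold change -1.70, SE 0.36, limma adjusted p = 0.0154). SLC7A7 missed the threshold without 60 dpi replicate 1 or 2 (limma adjusted p = 0.0519 and 0.0558, in that order) and in 4 of 18 alternatives in all.

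Light chains of this kind reach the cell surface only with a heavy chain, which SLC3A2 genes encode. The ID slc3a2a had 274, 192, 234 and 191 TPM in the 7 dpi libraries and 26.4, 39.6 and 82.4 TPM in the 60 dpi libraries. slc3a2a fell (log2 fold change -2.29, SE 0.39, limma adjusted p = 0.00592). The other ID of this name, SLC3A2, had 59.8, 42.4, 56.2 and 16.1 TPM in the 7 dpi libraries and 66.3, 133 and 82.6 TPM in the 60 dpi libraries. All its 60 dpi values lay above all its 7 dpi values, and the test was not passed (log2 fold change 1.18, SE 0.49, limma adjusted p = 0.176). In each library at 7 dpi slc3a2a made up most of the sum of both IDs, 82.1, 81.9, 80.6 and 92.2%, and at 60 dpi 28.5, 23 and 49.9%. The balance thus turned from slc3a2a towards the other ID in every 60 dpi library, without a test of this ratio, which was examined because of the values. Among light chains, slc7a11, the cystine importer that feeds glutathione synthesis, had 40.5, 7.84, 28.8 and 73 TPM in the 7 dpi libraries and 12.6, 30.5 and 15.2 TPM in the 60 dpi libraries, and these overlapped widely (limma adjusted p = 0.64). SLC7A5, the light chain of the leucine importer, lay under 4 TPM in every library and was not among the 97.

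The IDs of a second pair changed their order. SLC43A2, a facilitator of leucine, phenylalanine and other large neutral amino acids, is given to 2 IDs, ENSDARG00000036848 and ENSDARG00000061120. ENSDARG00000036848 had 28.3, 37.5, 59.9 and 60.8 TPM in the 7 dpi libraries and 161, 119 and 101 TPM in the 60 dpi libraries. ENSDARG00000036848 rose (log2 fold change 1.47, SE 0.38, limma adjusted p = 0.0406). ENSDARG00000061120 had 161, 43.4, 126 and 83.2 TPM in the 7 dpi libraries and 12.7, 53.3 and 44 TPM in the 60 dpi libraries. Its groups overlapped through 7 dpi replicate 2 (log2 fold change -1.54, SE 0.56, limma adjusted p = 0.13). The first ID was the lower of both in all 7 dpi libraries and the higher of both in all 60 dpi libraries. The log2 ratio of first over second ran from -2.47 to -0.21 at 7 dpi and from 1.14 to 3.56 at 60 dpi. SLC43A2 (ENSDARG00000036848) missed the threshold without 7 dpi replicate 1, 2 or 3 or 60 dpi replicate 1, 2 or 4 (limma adjusted p = 0.0736, 0.0887, 0.0606, 0.129, 0.103 and 0.0558, in that order) and in 12 of 18 alternatives in all. For the other 4 names shared by 2 of the 97 IDs, SLC12A7, SLC25A36, SLC38A5 and SLC48A1, the ratios of the groups overlapped. RSEM divides reads between similar transcripts, so the split between such IDs is less certain than their sum.

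**Figure D3:**
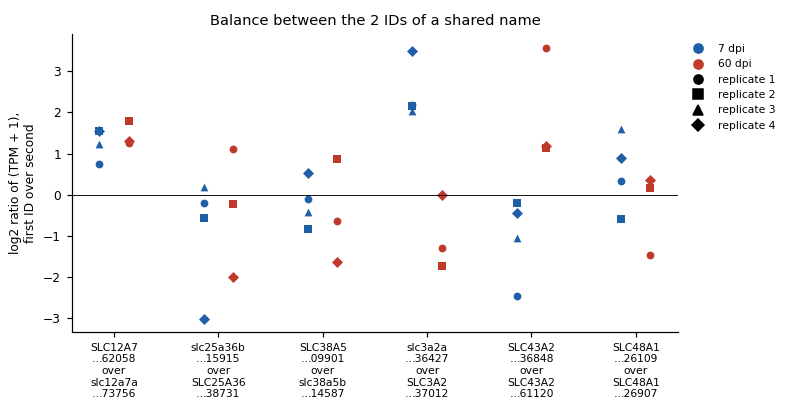
log2 ratio of (TPM + 1) between the 2 IDs of each shared name in each library (7 dpi blue, 60 dpi red, marker shape by replicate number). The 7 dpi and 60 dpi libraries are apart for slc3a2a over SLC3A2 and for the SLC43A2 IDs, and overlap for the other 4 names.

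Glutamine carriers gave a mixed picture. SLC38A7 exports glutamine from lysosomes. It had 40.02, 29, 24.9 and 67.9 TPM in the 7 dpi libraries and 9.47, 9.22 and 0.06 TPM in the 60 dpi libraries. The 60 dpi values lay under all 7 dpi values, with replicate 4 near 0, in an ID that met the level rule through 7 dpi libraries alone. SLC38A7 fell (log2 fold change -2.99, SE 0.81, limma adjusted p = 0.0455). SLC38A7 missed the threshold without 7 dpi replicate 1, 2, 3 or 4 or 60 dpi replicate 4 (limma adjusted p = 0.104, 0.0876, 0.0797, 0.096 and 0.073, in that order) and in 10 of 18 alternatives in all. SLC38A2 is the amino acid importer that cells raise when starved of amino acids. It had 203, 114, 144 and 256 TPM in the 7 dpi libraries and 142, 289.6 and 192 TPM in the 60 dpi libraries, and SLC1A5, an exchanger of neutral amino acids including glutamine, had 36.8, 22.1, 27.5 and 35.7 TPM in the 7 dpi libraries and 30.3, 40.5 and 40.5 TPM in the 60 dpi libraries. The groups of both overlapped (limma adjusted p = 0.786 and 0.747). SLC38A5 and slc38a5b had means of 41.2 and 70.8 TPM and 45.3 and 98.8 TPM at 7 and 60 dpi, and SLC38A3 and SLC38A10 12.6 and 11.5 TPM and 13.8 and 15.6 TPM. None passed, although all 60 dpi values of slc38a5b lay above its 7 dpi values (limma adjusted p = 0.409, 0.186, 0.96 and 0.99).

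The remaining amino acid IDs did not pass. slc36a4 belongs to the proton-coupled family. It had 9.07, 4.34, 11.2 and 1.68 TPM in the 7 dpi libraries and 23, 29.2 and 57 TPM in the 60 dpi libraries; all 60 dpi values lay above all 7 dpi values, and it missed the threshold (log2 fold change 2.42, SE 0.68, limma adjusted p = 0.0546). It crossed the threshold in 4 of 18 alternatives. SLC7A3, a cationic amino acid importer, also had groups apart, with 12.4, 7.90, 11.9 and 0.67 TPM in the 7 dpi libraries and 28.4, 30.2 and 24 TPM in the 60 dpi libraries (limma adjusted p = 0.148). SLC6A8, the creatine transporter, had means of 32.2 and 55.7 TPM, slc7a2 22.6 and 16.4 TPM, SLC36A1, a lysosomal proton-coupled carrier, 29.4 and 15.8 TPM and slc6a16b 16.5 and 10.9 TPM, with limma adjusted p of 0.358, 0.71, 0.572 and 0.591. The summed level of the 20 IDs was 1534 ± 348 TPM over the 7 dpi libraries and 1088 ± 215 TPM over the 60 dpi libraries (SD, n = 4 and 3), in overlapping ranges.

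The IDs of the metal group that fell carry zinc or copper, except SLC49A4, a lysosomal protein placed in this group by its family. None rose. Of 16 IDs 5 fell, and 12 had a negative fold change, 12 or 13 under the other scalings. Under the same level rule 6.97% of all IDs passed as lower. SLC30A1 exports zinc across the plasma membrane. It had 146, 99.4, 113 and 172 TPM in the 7 dpi libraries and 23.8, 33.8 and 11.1 TPM in the 60 dpi libraries. All 60 dpi values lay far below the lowest 7 dpi value. SLC30A1 fell (log2 fold change -2.58, SE 0.43, limma adjusted p = 0.00493), and the call held in all 18 alternatives. slc39a1 is a zinc importer of the plasma membrane. It had 91.2, 46.5, 51.1 and 137 TPM in the 7 dpi libraries and 19.3, 10.6 and 5.43 TPM in the 60 dpi libraries. slc39a1 fell (log2 fold change -2.71, SE 0.54, limma adjusted p = 0.0118). SLC39A7 releases zinc from the endoplasmic reticulum. It had 74.7, 36, 28.4 and 51.4 TPM in the 7 dpi libraries and 8.28, 1.07 and 5.23 TPM in the 60 dpi libraries. SLC39A7 fell (log2 fold change -3.21, SE 0.63, limma adjusted p = 0.0115), and this call also held in all 18. SLC39A7 met the level rule through 7 dpi libraries alone, so its fall is in part a product of how the IDs were chosen. The same holds for the level of SLC39A10 and SLC41A1, which also count among the negative fold changes. The importer and the exporter of the cell surface were thus both lower at 60 dpi.

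Of the other zinc carriers none passed. SLC39A10 is an importer. It had 10.5, 8.01, 12.5 and 18.2 TPM in the 7 dpi libraries and 1.09, 3.87 and 0.09 TPM in the 60 dpi libraries, groups that did not overlap, and a limma adjusted p of 0.0872. SLC30A4 is an exporter into vesicles. It had 49.1, 32.2, 32.2 and 36.6 TPM in the 7 dpi libraries and 14.8, 17.9 and 17 TPM in the 60 dpi libraries, also apart (limma adjusted p = 0.144, and 0.0479 with TPM rescaled over named IDs). SLC30A7, which loads zinc into the Golgi, and SLC30A10, a manganese exporter, had means of 37.3 and 26.6 TPM and 54.1 and 50.9 TPM; SLC30A9 and SLC39A13 had 7.16 and 14.5 TPM and 9.34 and 7.85 TPM. Their libraries overlapped, and the limma adjusted p were 0.677, 0.715, 0.421 and 0.925.

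Among copper, iron and heme carriers and the remaining IDs of the metal group SLC31A1 and SLC49A4 fell, and the others did not pass. SLC31A1 is the high-affinity copper importer. It had 42.1, 31.4, 38.7 and 32.9 TPM in the 7 dpi libraries and 8.03, 7.83 and 14.8 TPM in the 60 dpi libraries. SLC31A1 fell (log2 fold change -1.78, SE 0.47, limma adjusted p = 0.0419). SLC31A1 missed the threshold without 7 dpi replicate 1, 2 or 3 or 60 dpi replicate 1 or 2 (limma adjusted p = 0.0935, 0.0887, 0.122, 0.103 and 0.119, in that order) and in 8 of 18 alternatives in all. SLC49A4, a lysosomal membrane protein of the family that includes heme exporters, had 56.3, 32.6, 42.8 and 50.5 TPM in the 7 dpi libraries and 3.81, 11.6 and 3.83 TPM in the 60 dpi libraries, with every 60 dpi value far under the 7 dpi range. SLC49A4 fell (log2 fold change -2.78, SE 0.53, limma adjusted p = 0.0101). SLC40A1 is ferroportin, the cellular iron exporter by which macrophages return iron from digested red cells. It had 18.6, 18.5, 23.1 and 45.5 TPM in the 7 dpi libraries and 12.8, 8.86 and 4.13 TPM in the 60 dpi libraries. Its groups did not overlap, and it missed the threshold (log2 fold change -1.53, SE 0.58, limma adjusted p = 0.147). slc11a2 is a proton-coupled importer of ferrous iron. It had 9.91, 19.1, 12.2 and 18.6 TPM in the 7 dpi libraries and 2.61, 3.63 and 31 TPM in the 60 dpi libraries, where 60 dpi replicate 4 was the highest of all 7 (limma adjusted p = 0.547). Both SLC48A1 IDs, named for a heme exporter of lysosomes, and SLC41A1, a magnesium transporter, varied widely, ENSDARG00000026907 from 0 to 29.9 TPM, ENSDARG00000026109 from 0.86 to 37.7 TPM and SLC41A1 from 0.18 to 17.04 TPM (limma adjusted p = 0.471, 0.836 and 0.487).

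The summed level of the 16 metal transporter IDs was 711, 466, 490.3 and 669.8 TPM in the 7 dpi libraries and 196, 209.7 and 294 TPM in the 60 dpi libraries. The groups did not overlap, and the means were 584 ± 124 TPM over the 7 dpi libraries and 233 ± 52.8 TPM over the 60 dpi libraries (SD, n = 4 and 3). SLC39A7, SLC39A10 and SLC41A1 entered this sum through their 7 dpi levels alone. Among other genes of iron and metal handling, 1 of 8 tested IDs fell and none rose: fth1a, a subunit of ferritin, the iron store, had 1869, 765, 941 and 1225 TPM in the 7 dpi libraries and 311, 671 and 477 TPM in the 60 dpi libraries and a log2 fold change of -1.29 with an SE of 0.35 (adjusted p = 0.0473 by limma). HMOX1, heme oxygenase 1, which frees iron from heme, had 168, 49.8, 133 and 159.7 TPM in the 7 dpi libraries and 53.7, 66 and 54.9 TPM in the 60 dpi libraries (limma adjusted p = 0.205). Over all tested IDs 3.68% passed as lower.

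Of 7 sugar transporter IDs 4 fell and none rose, against 6.97 and 6.10% of all IDs under the same level rule. Of these 4, slc2a3b and SLC45A3 met the level rule through the 7 dpi libraries alone, so their fall is in part a product of how the IDs were chosen; SLC2A6 and SLC37A2 reached 10 TPM in libraries of both groups. slc2a3b is a glucose importer of the high-affinity GLUT3 kind. It had 109, 37.5, 65.3 and 128 TPM in the 7 dpi libraries and 5.82, 9.72 and 0.06 TPM in the 60 dpi libraries. The 60 dpi values lay well under the lowest 7 dpi value, with replicate 4 near 0. slc2a3b fell (log2 fold change -4.19, SE 0.76, limma adjusted p = 0.0083). The call held in all 18 alternatives, for an ID selected through its 7 dpi level. SLC2A1 is the basal glucose importer GLUT1. It had 37.9, 15.7, 15.4 and 37 TPM in the 7 dpi libraries and 20.3, 36.6 and 26.6 TPM in the 60 dpi libraries, and its groups overlapped (log2 fold change 0.16, SE 0.51, limma adjusted p = 0.905). Its sign changed in 5 of 18 alternatives, TPM rescaled over named IDs among them. At 7 dpi slc2a3b was the higher of these glucose importers in every library, and at 60 dpi SLC2A1 was.

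SLC2A6 is a hexose transporter of lysosomal membranes. It had 214, 86.2, 107 and 114 TPM in the 7 dpi libraries and 18, 22.8 and 63.8 TPM in the 60 dpi libraries. SLC2A6 fell (log2 fold change -2.003, SE 0.48, limma adjusted p = 0.0273). SLC37A2 is an exchanger of sugar phosphates in the endoplasmic reticulum that is prominent in macrophages. It had 110.4, 80.3, 88.8 and 72.1 TPM in the 7 dpi libraries and 11.8, 17.1 and 50.7 TPM in the 60 dpi libraries. SLC37A2 fell (log2 fold change -1.94, SE 0.48, limma adjusted p = 0.0328). In both, replicate 4 was by far the highest of the 60 dpi libraries. SLC2A6 missed the threshold without 7 dpi replicate 1, 3 or 4 or 60 dpi replicate 1 or 2 (limma adjusted p = 0.0712, 0.0598, 0.0501, 0.0887 and 0.0928, in that order) and in 8 of 18 alternatives in all. SLC37A2 missed the threshold without 7 dpi replicate 1, 2 or 3 or 60 dpi replicate 1 or 2 (limma adjusted p = 0.0797, 0.0696, 0.0804, 0.1 and 0.103, in that order) and in 8 of 18 alternatives in all. SLC45A3 belongs to the proton-coupled sugar family. It had 14.8, 24, 27.2 and 29.9 TPM in the 7 dpi libraries and 0, 3.04 and 0 TPM in the 60 dpi libraries. SLC45A3 fell (log2 fold change -3.93, SE 0.78, limma adjusted p = 0.0118). It was listed at 0 in 2 of 3 libraries at 60 dpi. SLC45A4 belongs to the same family. It had 145, 97.3, 82.2 and 53.9 TPM in the 7 dpi libraries and 20.2, 37.6 and 77.7 TPM in the 60 dpi libraries and overlapping groups (limma adjusted p = 0.183, 0.0334 without replicate 4 of both groups). SLC2A10 ranged from 0 to 35.4 TPM over both groups (limma adjusted p = 0.434). The summed level of the 7 sugar transporter IDs was 642, 349, 399 and 436 TPM in the 7 dpi libraries and 91.8, 133 and 254 TPM in the 60 dpi libraries, without overlap. Both slc2a3b and SLC45A3 entered this sum through their 7 dpi levels alone, so its fall is in part a product of how the IDs were chosen.

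Mitochondrial carriers held 3 of the 4 solute carrier IDs that rose. Of 16 IDs 3 rose and 1 fell, against 6.10 and 6.97% of all IDs under the same level rule, and 9 had a negative fold change. SLC25A5 had 2309.8, 1679, 1831 and 1931 TPM in the 7 dpi libraries and 3063, 4269 and 5271 TPM in the 60 dpi libraries, so that every 60 dpi library exceeded every 7 dpi library. SLC25A5 rose (log2 fold change 1.09, SE 0.26, limma adjusted p = 0.0244). It made up 24.2, 27.8, 27.5 and 23.7% of the TPM of all 97 IDs at 7 dpi and 51.4, 53.4 and 56.2% at 60 dpi. The other 96 IDs summed to 7225, 4361, 4825 and 6225 TPM at 7 dpi. At 60 dpi they summed to 2895, 3726 and 4109.5 TPM, in the opposite direction. Among these are the 10 IDs that met the level rule through 7 dpi libraries alone. SLC25A5 missed the threshold without 7 dpi replicate 2, 3 or 4 or 60 dpi replicate 2 or 4 (limma adjusted p = 0.0596, 0.0802, 0.0552, 0.097 and 0.104, in that order) and in 10 of 18 alternatives in all. With quantile normalization its fold change was 0.48 (limma adjusted p = 0.206). SLC25A4, the translocase of heart and skeletal muscle, was listed at 0 in 6 of 7 libraries and SLC25A6 in all 7, so SLC25A5 held nearly all TPM of these translocase IDs. The cardiomyocyte marker sum was above the 7 dpi range in 60 dpi replicates 2 and 4, the libraries with the most SLC25A5, and just below it in replicate 1. At 7 dpi this sum was highest in replicate 2 (1228 TPM), the library with the least SLC25A5. At 60 dpi the sum was highest in replicate 2 (5106 TPM) and SLC25A5 in replicate 4. The part of cardiomyocyte RNA in the SLC25A5 values was not tested.

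SLC25A25 is a calcium-regulated carrier that exchanges ATP-Mg for phosphate. It had 52.6, 53.6, 56.2 and 196 TPM in the 7 dpi libraries and 253, 423 and 272 TPM in the 60 dpi libraries. The 60 dpi libraries were all higher, and 7 dpi replicate 4 stood apart from the other 7 dpi libraries, towards the 60 dpi level. SLC25A25 rose (log2 fold change 2.03, SE 0.46, limma adjusted p = 0.0216). SLC25A25 missed the threshold without 7 dpi replicate 1, 2 or 3 or 60 dpi replicate 2 (limma adjusted p = 0.0557, 0.057, 0.06 and 0.0892, in that order) and in 7 of 18 alternatives in all. SLC25A38, which brings glycine into mitochondria for the first step of heme synthesis, had 3.26, 0, 0.35 and 0 TPM in the 7 dpi libraries and 12.1, 11.7 and 19.6 TPM in the 60 dpi libraries, a low transcript that met the level rule through the 60 dpi libraries alone. SLC25A38 rose (log2 fold change 3.28, SE 0.85, limma adjusted p = 0.0384). SLC25A38 missed the threshold without 7 dpi replicate 2 or 3 or 60 dpi replicate 1, 2 or 4 (limma adjusted p = 0.0991, 0.0956, 0.072, 0.0817 and 0.0864, in that order) and in 9 of 18 alternatives in all. SLC25A35, a carrier of unsettled substrate, had 98.6, 45.3, 55.8 and 22.3 TPM in the 7 dpi libraries and 0, 0.25 and 26.6 TPM in the 60 dpi libraries; 60 dpi replicate 4 lay inside the 7 dpi range and the other 60 dpi values at or near 0 (log2 fold change -3.93, SE 1.03, limma adjusted p = 0.0402). SLC25A35 missed the threshold without 7 dpi replicate 1, 2, 3 or 4 or 60 dpi replicate 1 or 2 (limma adjusted p = 0.116, 0.0876, 0.0958, 0.0534, 0.117 and 0.127, in that order) and in 9 of 18 alternatives in all.

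The other 12 mitochondrial carriers did not pass. SLC25A3 is the phosphate carrier that feeds ATP synthase. It had 183, 123, 153 and 93.8 TPM in the 7 dpi libraries and 87.3, 198 and 209.5 TPM in the 60 dpi libraries in overlapping ranges (limma adjusted p = 0.824). slc25a55a is the second most abundant of the family here. It had 527, 276, 319 and 539 TPM in the 7 dpi libraries and 177, 253 and 239 TPM in the 60 dpi libraries, all 60 dpi libraries lying under all 7 dpi libraries, at a limma adjusted p of 0.138 that became 0.0187 with quantile normalization and 0.0202 with TPM rescaled over named IDs. SLC25A33 and SLC25A36, carriers of pyrimidine nucleotides, had means of 38.2 and 16.7 TPM and 32.6 and 15.8 TPM. SLC25A37 is mitoferrin, the iron importer of red cell precursors. It had 20.7, 13.3, 12.7 and 10.4 TPM in the 7 dpi libraries and 16.2, 8.63 and 2.70 TPM in the 60 dpi libraries, and slc25a39, which imports glutathione, was listed at 0 in 2 of 4 libraries at 7 dpi and reached at most 17.8 TPM. SLC25A11, the oxoglutarate carrier, SLC25A15, an ornithine carrier, and slc25a51b, an NAD+ carrier, had means of 34.4 and 24.3, 7.74 and 18 and 14.2 and 13.2 TPM. slc25a36b, slc25a14 and SLC25A47 had means of 13 and 9.01, 14.5 and 15.9 and 8.58 and 12.2 TPM. The summed level of all 16 was 3372, 2312, 2558 and 3036 TPM in the 7 dpi libraries and 3707, 5318 and 6196 TPM in the 60 dpi libraries, apart between groups and set mainly by SLC25A5.

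Nucleoside and nucleobase carriers were led by SLC43A3, which takes up purine nucleobases. It had 1483, 889, 754 and 979 TPM in the 7 dpi libraries and 239, 298 and 491 TPM in the 60 dpi libraries. SLC43A3 fell (log2 fold change -1.60, SE 0.32, limma adjusted p = 0.0121). The lowest 7 dpi value lay above the highest 60 dpi value. SLC29A3 exports nucleosides from lysosomes. It had 19.6, 10.4, 16 and 30.5 TPM in the 7 dpi libraries and 4.05, 3.91 and 7.06 TPM in the 60 dpi libraries, also without overlap, and missed the threshold (limma adjusted p = 0.136). It met the level rule through 7 dpi libraries alone. SLC29A1 is the nucleoside carrier of the plasma membrane. It had 19.8, 13.5, 22.6 and 24.5 TPM in the 7 dpi libraries and 20.7, 42.3 and 33.2 TPM in the 60 dpi libraries in overlapping groups (limma adjusted p = 0.484).

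Among the SLC35 family, which mostly brings nucleotide sugars and related donors into the endoplasmic reticulum and Golgi, 1 of 7 IDs fell. Under the same level rule 6.97% of all IDs did. SLC35F6 is a member of unsettled substrate. It had 254, 139.8, 192 and 278 TPM in the 7 dpi libraries and 45.7, 27.3 and 68.5 TPM in the 60 dpi libraries. SLC35F6 fell (log2 fold change -2.22, SE 0.39, limma adjusted p = 0.00642). Carriers of the secretory pathway did not pass: SLC35B1, the ATP importer of the endoplasmic reticulum, had 41.5, 18.6, 19.2 and 26.9 TPM in the 7 dpi libraries and 18.3, 3.92 and 11 TPM in the 60 dpi libraries, all 60 dpi values being the lower (limma adjusted p = 0.22). SLC35B2 supplies the sulfate donor for proteoglycans. It had 14.9, 15.5, 19 and 4.10 TPM in the 7 dpi libraries and 16.3, 36.1 and 39.2 TPM in the 60 dpi libraries in overlapping groups (limma adjusted p = 0.277). SLC35A2, the UDP-galactose carrier, had means of 10.7 and 3.27 TPM, SLC35D2 19.8 and 24.3 TPM, SLC35E1 21.9 and 19.5 TPM and slc35a4 18.9 and 23.3 TPM, with limma adjusted p of 0.238, 0.789, 0.95 and 0.966. Of these, SLC35A2 met the level rule through 7 dpi libraries alone.

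Of 8 ion exchanger IDs 2 fell and none rose, against 6.97 and 6.10% of all IDs under the same level rule. SLC4A2 is the widespread chloride/bicarbonate exchanger. It had 63.8, 53.9, 46.1 and 80.8 TPM in the 7 dpi libraries and 13.1, 12.2 and 2.32 TPM in the 60 dpi libraries, far below the 7 dpi range in every 60 dpi library. SLC4A2 fell (log2 fold change -2.84, SE 0.57, limma adjusted p = 0.0122). SLC12A9 is a relative of the cation/chloride cotransporters. It had 41.9, 35.5, 44.5 and 52.2 TPM in the 7 dpi libraries and 10.6, 6.29 and 13.6 TPM in the 60 dpi libraries. SLC12A9 fell (log2 fold change -2.04, SE 0.46, limma adjusted p = 0.0214). SLC12A9 missed the threshold without 7 dpi replicate 2 or 3 or 60 dpi replicate 2 (limma adjusted p = 0.0509, 0.0711 and 0.072, in that order) and in 5 of 18 alternatives in all. SLC4A1, band 3 of red cells, had 40.6, 32.4, 45.4 and 15.8 TPM in the 7 dpi libraries and 10.8, 4.53 and 9.12 TPM in the 60 dpi libraries, without overlap. Its limma adjusted p of 0.0659 became 0.0294 without 7 dpi replicate 4, and it passed in 7 of 18 alternatives. SLC4A1 is itself on the erythrocyte list, whose sums overlapped between the groups and consisted mostly of the hemoglobin ID hbaa1. The median log2 fold change of the 8 erythrocyte IDs was -1.48, 7 of them were negative and none passed. Their part in the SLC4A1 values was not tested.

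The other ion carriers did not pass. slc4a7 is a sodium/bicarbonate importer. It had 16.8, 14.4, 19.1 and 8.66 TPM in the 7 dpi libraries and 43, 30.2 and 67.6 TPM in the 60 dpi libraries, and SLC12A4, a potassium/chloride exporter, had 17, 15.4, 11.8 and 15.7 TPM in the 7 dpi libraries and 28.9, 53.1 and 31.6 TPM in the 60 dpi libraries; in both all 60 dpi values exceeded all 7 dpi values (limma adjusted p = 0.0771 and 0.138). SLC12A7, of the potassium/chloride exporters, had 62.9, 33.6, 37.1 and 16.6 TPM in the 7 dpi libraries and 43.1, 39.99 and 66.8 TPM in the 60 dpi libraries, and slc12a7a, its relative, had means of 16.9 and 18.3 TPM (limma adjusted p = 0.591 and 0.838). Both phosphate importers had groups apart, with the 60 dpi values higher, as had 15.6% of all IDs under the same level rule. SLC20A1 had 82, 46.8, 54.4 and 76.9 TPM in the 7 dpi libraries and 141, 164 and 104 TPM in the 60 dpi libraries. It missed the threshold (log2 fold change 1.07, SE 0.35, limma adjusted p = 0.0889). SLC20A2 had 9.04, 10.5, 11.7 and 5.70 TPM in the 7 dpi libraries and 21, 21.6 and 17.2 TPM in the 60 dpi libraries and missed it too (log2 fold change 1.07, SE 0.55, limma adjusted p = 0.283). The first passed with library weights (limma adjusted p = 0.0167) and the second in no alternative.

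**Figure D4:**
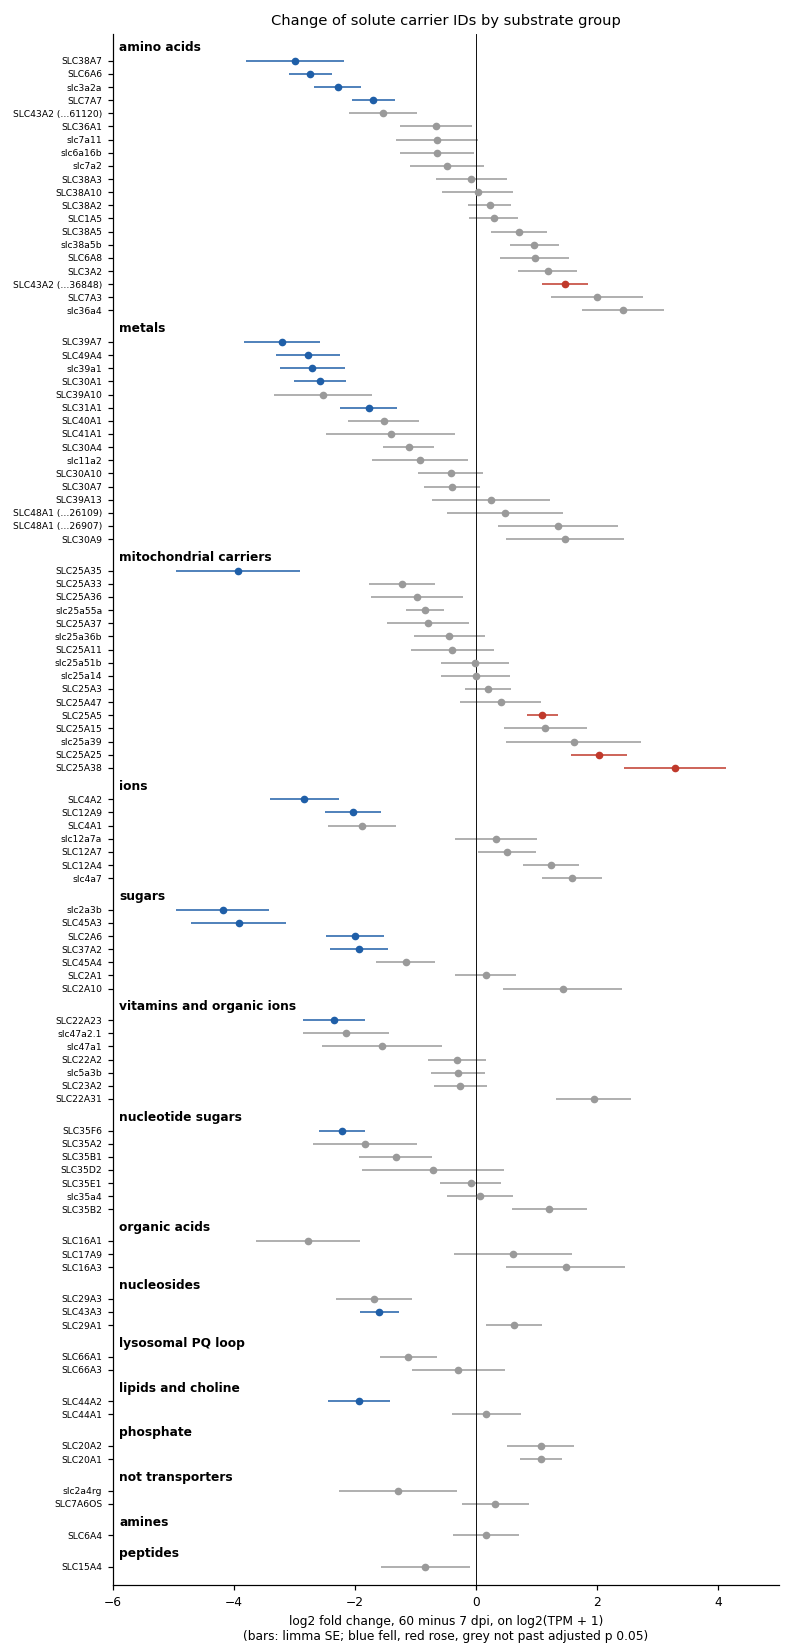
log2 fold change (60 minus 7 dpi, on log2(TPM + 1), x axis) of 96 of the 97 IDs, each with its limma SE, arranged by substrate (blue fell, red rose, grey not past an adjusted p of 0.05). Metals and sugars hold 9 of the 20 blue points, of which slc2a3b, SLC45A3 and SLC39A7 met the level rule through 7 dpi libraries alone. Mitochondrial carriers hold 3 of the 4 red points and amino acids 1, and no other group has a red point.

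Lactate carriers were low. SLC16A1 is the monocarboxylate importer MCT1. It had 15.1, 14, 8.74 and 15.9 TPM in the 7 dpi libraries and 0.19, 5.90 and 0.07 TPM in the 60 dpi libraries, and SLC16A3, the lactate exporter MCT4 of glycolytic cells, had 15.6, 7.88, 6.97 and 0.05 TPM in the 7 dpi libraries and 18.6, 34.6 and 5.52 TPM in the 60 dpi libraries. The groups of SLC16A1, which met the level rule through 7 dpi libraries alone, did not overlap. Its limma adjusted p of 0.0776 became 0.0427 without 60 dpi replicate 2, while the groups of SLC16A3 overlapped (limma adjusted p = 0.417). BSG, basigin, the chaperone that brings both to the cell surface, had 439, 252, 299 and 295 TPM in the 7 dpi libraries and 179, 237 and 292 TPM in the 60 dpi libraries (limma adjusted p = 0.421). SLC17A9, which loads vesicles with ATP, ranged from 0 to 16.5 TPM (limma adjusted p = 0.781).

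Carriers of choline, vitamins and organic ions included 2 that fell. They were 1 of 2 lipid and choline IDs and 1 of 7 vitamin and organic ion IDs. Under the same level rule 6.97% of all IDs fell. SLC44A2 is a choline transporter. It had 125, 73.2, 74.6 and 182 TPM in the 7 dpi libraries and 61.2, 16.6 and 18.8 TPM in the 60 dpi libraries, with 60 dpi replicate 1 close to the lowest 7 dpi value. SLC44A2 fell (log2 fold change -1.94, SE 0.51, limma adjusted p = 0.0412). SLC44A2 missed the threshold without 7 dpi replicate 1, 2, 3 or 4 or 60 dpi replicate 2 or 4 (limma adjusted p = 0.0948, 0.0575, 0.0624, 0.0833, 0.138 and 0.116, in that order) and in 11 of 18 alternatives in all. SLC44A1, its relative, had 10.4, 9.54, 11 and 8.02 TPM in the 7 dpi libraries and 10.8, 11.1 and 11.2 TPM in the 60 dpi libraries and overlapping groups. SLC22A23 is an orphan of the organic ion family. It had 38.5, 22.3, 35.4 and 32.2 TPM in the 7 dpi libraries and 5.02, 6.42 and 4.74 TPM in the 60 dpi libraries, and met the level rule through the 7 dpi libraries alone. SLC22A23 fell (log2 fold change -2.35, SE 0.51, limma adjusted p = 0.0177). SLC22A23 missed the threshold without 7 dpi replicate 1 or 3 (limma adjusted p = 0.0536 and 0.0734, in that order) and in 3 of 18 alternatives in all. SLC22A31, another orphan, had 5.30, 6.32, 4.83 and 10.9 TPM in the 7 dpi libraries and 46.9, 14 and 32.5 TPM in the 60 dpi libraries, all 60 dpi values being higher (limma adjusted p = 0.0842), and slc47a2.1, an exporter of organic cations, had 57.1, 21.3, 28.4 and 25 TPM in the 7 dpi libraries and 4.77, 20.8 and 1.89 TPM in the 60 dpi libraries, all lower (limma adjusted p = 0.0957, and 0.0369 without 60 dpi replicate 2). slc47a1, SLC22A2, SLC23A2, the ascorbate importer, and slc5a3b, the inositol importer, had overlapping groups, with means of 27.2 and 15.3, 25.8 and 21.5, 30.5 and 25.2 and 41.9 and 34.8 TPM (limma adjusted p = 0.394, 0.769, 0.79 and 0.762).

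The remaining groups held 1 or 2 IDs each. SLC66A1 exports cationic amino acids from lysosomes. It had 29.8, 23.4, 33 and 60.5 TPM in the 7 dpi libraries and 15.4, 14.3 and 16.2 TPM in the 60 dpi libraries, without overlap (limma adjusted p = 0.185), and SLC66A3 had means of 10.7 and 11.3 TPM. SLC15A4 is a lysosomal histidine and peptide carrier of immune cells. It had 39.6, 28.8, 34.4 and 4.71 TPM in the 7 dpi libraries and 5.80, 16.9 and 14.7 TPM in the 60 dpi libraries; 7 dpi replicate 4 was the lowest of all 7 (limma adjusted p = 0.557). SLC6A4, the serotonin importer, was present in every library, with 62.9, 50.2, 39.6 and 18.2 TPM in the 7 dpi libraries and 93, 26.4 and 34 TPM in the 60 dpi libraries and overlapping groups (limma adjusted p = 0.905).

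**Figure D5:**
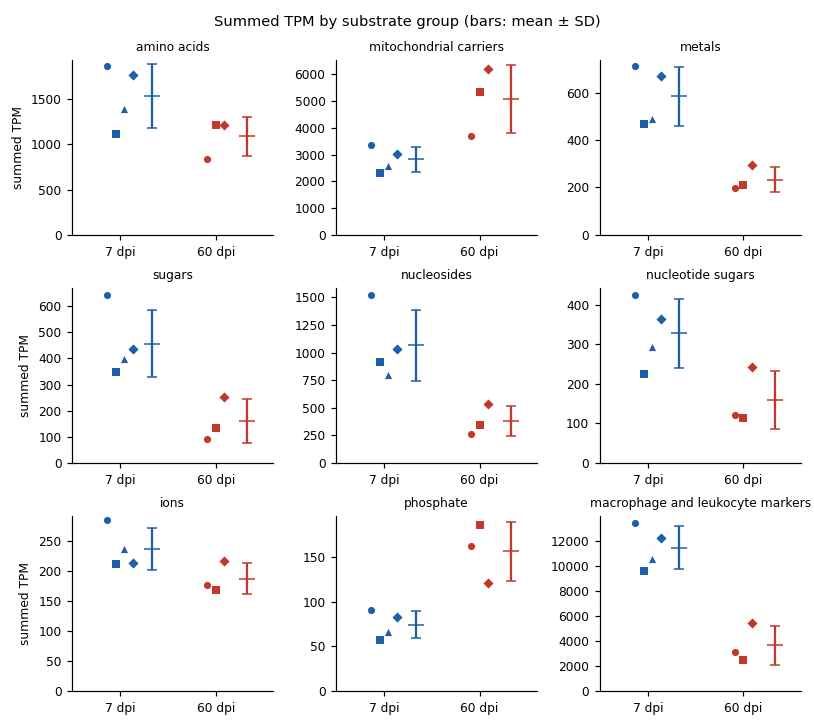
Summed TPM of the IDs of 8 substrate groups and of 32 macrophage and leukocyte marker IDs in each library (7 dpi blue, 60 dpi red, marker shape by replicate number; dash and bar, mean ± SD; axes start at 0). Sums of metal, sugar and nucleoside carriers and of the leukocyte markers are lower in all 60 dpi libraries, and those of mitochondrial and phosphate carriers are higher. In these sums SLC39A7, SLC39A10, SLC41A1, slc2a3b, SLC45A3, SLC29A3, SLC38A7 and SLC35A2 met the level rule through 7 dpi libraries alone. SLC25A38 met it through 60 dpi libraries alone.

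Enzymes that make or use the carried amino acids were tested in the same fit. Of 20 tested IDs of glutamine and amino acid enzymes and their regulators, 6 rose and none fell. Over all tested IDs 3.20% passed as higher and 3.68% as lower. The list was chosen with earlier results of these data known, and its count carries no test of its own. GLUL (ENSDARG00000100003), glutamine synthetase, which makes glutamine from glutamate, had 29.5, 21, 52.8 and 20.2 TPM in the 7 dpi libraries and 144, 158 and 185 TPM in the 60 dpi libraries, and the ID GLUL (ENSDARG00000099776) 15.2, 7.24, 18 and 0.45 TPM in the 7 dpi libraries and 509, 332 and 272 TPM in the 60 dpi libraries; both rose (limma adjusted p = 0.00485 and 0.00184). ARG2, the mitochondrial arginase, had 20.1, 9.30, 12.1 and 19.2 TPM in the 7 dpi libraries and 75.2, 71.4 and 61.4 TPM in the 60 dpi libraries, and atf4b, a transcription factor of the amino acid stress response, had 524, 334, 434 and 481 TPM in the 7 dpi libraries and 735, 945 and 943 TPM in the 60 dpi libraries (limma adjusted p = 0.0129 and 0.039). SAT1 (ENSDARG00000095908), a polyamine acetylase, rose as well, at a limma adjusted p of 0.0481.

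Partners, pumps and other transporters were tested in the same fit, in which 6.88% of all IDs passed. Of 18 tested IDs of carrier partners, sodium pumps and mitochondrial pores 1 rose, cltrn, collectrin, a chaperone of epithelial amino acid carriers, with 0.16, 5.82, 3.31 and 0.55 TPM in the 7 dpi libraries and 11.5, 39.5 and 57 TPM in the 60 dpi libraries (limma adjusted p = 0.0346). ATP1B1 (ENSDARG00000013144), a subunit of the sodium pump that sets the gradient used by sodium-coupled carriers, had 371, 325, 397 and 520.3 TPM in the 7 dpi libraries and 497, 726 and 779 TPM in the 60 dpi libraries (limma adjusted p = 0.144). Of 16 tested IDs of ABC transporters, aquaporins, metal and calcium pumps and organic anion transporters, SLCO2A1, the prostaglandin importer, rose, with 6.19, 0.68, 1.42 and 8.70 TPM in the 7 dpi libraries and 56.2, 25.9 and 39.5 TPM in the 60 dpi libraries and a log2 fold change of 3.27 with an SE of 0.76 (adjusted p = 0.0235 by limma). The cholesterol exporter abca1b fell, with 78, 53.8, 53.3 and 59.5 TPM in the 7 dpi libraries and 15.7, 8.88 and 29.1 TPM in the 60 dpi libraries and a log2 fold change of -1.85 with an SE of 0.46 (adjusted p = 0.0334 by limma), whereas the ID ABCA1 overlapped between groups (limma adjusted p = 0.896).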

How the data were processed

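Bulk RNA was measured in 7 pools of sorted mCherry-positive cells, 4 at 7 dpi and 3 at 60 dpi, from 0.2 to 0.6 ng of RNA (single reads of 60 nt), per the labels' protocols. The labels name both an amplifying kit and a TruSeq kit and do not make clear which made these libraries. The authors deposited 1 table of TPM values. CASAVA 1.8.2, RSEM 1.2.25 and cutadapt are named, and so is build Zv9, per the submitters' processing notes. Neither an aligner nor an annotation is given in the sources used here. TPM keeps no read depth, and library preparation from so little RNA can lose rare transcripts, so a 0 need not mean absence. A gene name table named 25925 IDs (82.6%); no ID of the 97 had values identical to another.

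IDs of at least 1 TPM in at least 3 libraries (15130) were fitted with limma 3.58.1 (R 4.3.3) on log2(TPM + 1), with a mean-variance trend and no term but time. Two-sided p-values were Benjamini-Hochberg adjusted over all of these IDs, at 0.05. Fold changes are on the log2(TPM + 1) scale, which understates changes of low genes. Replicates are separate pools, and p-values measure the spread between them. The fit was run on simulated data with planted changes, only to check the sign and size of its estimates. The simulated noise was independent between IDs, with no shift shared within a library, so it cannot show how many calls are false here. Tables were made with pandas 2.3.3 and numpy 2.4.6 in Python 3.11.15, figures with matplotlib 3.10.9.

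The 97 IDs, the substrate groups and the other gene lists were chosen with earlier results of these data known. Substrate groups follow family numbers with a few exceptions; SLC66 and the 2 non-transporters were set apart after the values were seen. Named were all IDs past the threshold, the most abundant of each group and a fixed set of 35 names, of which 25 were among the 97; most others are named for completeness, and a few results are not reported here. A list entry matched IDs of that symbol with or without a paralog letter. The main fit did not take replicate numbers as pairs. Deviations from group means had r of 0.0054, 0.014 and 0.028 between libraries of the same number (replicates 1, 2 and 4). Between libraries of different numbers r ran from -0.024 to 0.019. With so few libraries, and deviations taken from their own group means, small r cannot exclude pairs. With replicate number as a block, calls among the 97 fell from 24 to 6. Replicate 3 exists at 7 dpi only, so that library has no part in the fold changes of the block fit. Leaving it out without a block gave 12 calls.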

Additional observations from a re-analysis of the deposited data

Results flagged for a closer look

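Among the 7 dpi libraries of 47 named IDs and 15 group sums, 4 had 1 library far from the others by Dixon's test at the 95% level; chance flags about 1 in 20. SLC25A25 had a gap of 0.950 of its range, replicate 4 being higher (52.6, 53.6, 56.2 and 196 TPM in replicates 1 to 4). SLC15A4, alone in its group so that the group sum is the same value, had a gap of 0.842, replicate 4 being lower (39.6, 28.8, 34.4 and 4.71 TPM). SLC7A6OS, not a transporter, had a gap of 0.889, replicate 3 being lower (25.5, 24.7, 10.2 and 23.1 TPM). 7 dpi replicate 4 was also the library with the fewest IDs at 1 TPM or more (9844 against 14599 to 15431 in the other 7 dpi libraries). Its part in these values was not tested. At 60 dpi replicate 4 had the fewest such IDs, 10840 against 14061 and 13352 in replicates 1 and 2. SLC38A7 and slc2a3b both had 0.06 TPM in that library. Without it the log2 fold change of SLC38A7 was -1.90, against -2.99 in the main fit.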

How the results depend on the processing

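The median of the 97 IDs stayed negative in all 18 alternative fits, between -0.28 and -0.69, and was -0.84 when members had to reach 20 TPM in 3 libraries. Against 24 calls among the 97 (4 higher, 20 lower), 14 (0 and 14) were made with no filter on low values, 8 (1 and 7) without the mean-variance trend and 6 (0 and 6) with replicate number as a block. With library weights 27 were called, 6 of them higher. Calls over all tested IDs, 1041, became 596, 477, 322 and 1659 under these 4 settings, and those of the other transport and substrate genes, 10, became 4, 2, 2 and 14. Leaving out single libraries gave 12 to 20 calls among the 97, 0 to 3 higher and 12 to 18 lower, 581 to 1181 over all IDs and 3 to 10 of the other genes. Without replicate 4 of both groups 22 were called, 2 higher and 20 lower. With a mean of at least 10 TPM as the rule, 93 IDs were members, with 23 calls; minimums of 5 and 20 TPM gave 156 and 61 members, with 24 and 23 calls.

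The calls of SLC6A6, SLC30A1, SLC39A7 and slc2a3b held in all 18 alternatives. Of these, SLC39A7 and slc2a3b met the level rule through 7 dpi libraries alone. Calls of 7 further IDs were lost in 1 or 2 and those of 13 in 3 or more. No called ID changed sign. Signs were followed one by one for 47 IDs, the called ones among them. Some of these that had not passed changed sign. With TPM rescaled over named IDs they were SLC2A1 (-0.10), SLC25A3 (-0.072), SLC38A2 (-0.047) and SLC6A4 (-0.098). With the replicate block SLC2A1 (-0.052) did, and with library weights SLC25A3 (-0.011). Without replicate 4 of both groups SLC25A3 (-0.19), SLC6A4 (-0.0081) and SLC12A7 (-0.044) did. Further IDs changed sign outside these 47. Negative fold changes of the amino acid group numbered 10, 11 with median ratio scaling and 12 with TPM rescaled over named IDs. The SLC35 family had 5, and 6 with quantile normalization or this rescaling. The metal group had 12, and 13 with quantile normalization. Leaving out single libraries, the fold change ran from -0.055 to 0.36 for SLC2A1, -0.026 to 0.60 for SLC25A3, -0.046 to 0.46 for SLC38A2, -0.37 to 0.52 for SLC6A4 and -0.61 to 0.0078 for slc5a3b. The cause was not tested. The depth behind TPM is unknown, so how far it limits calls of low carriers cannot be given.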
